A study of Mus musculus with 6 samples.

Results

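The 10 genes described here write, read, erase or protect DNA methylation in the oocyte and early embryo. They are Dnmt1, Uhrf1, Dnmt3a, Dnmt3b, Dnmt3l, Tet3, Dppa3, Zfp57, Trim28 and Ctcf. Every probe set that the array annotation assigned to exactly 1 of these symbols was taken, which gave 20 probe sets of the 21646 tested on the arrays. Dnmt3a had 5 probe sets, Dnmt1 had 3, Uhrf1, Dnmt3b, Trim28 and Ctcf had 2 each, and the other genes had 1.

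Maternal imprints are methyl marks that the growing oocyte places on a small set of loci and that the embryo keeps through a general loss of methylation after fertilisation. De novo enzymes place the marks, a maintenance enzyme copies them at each replication, an oxidising enzyme removes methylation elsewhere in the zygote, and DNA-binding proteins hold the imprints in place. Fully grown oocytes and eggs make little new RNA, so the embryo starts from transcripts and proteins stored before ovulation.

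The arrays compared mouse oocytes at the germinal vesicle (GV) stage, arrested with an intact nucleus before the first meiotic division, with eggs at metaphase of the second division (MII), with 3 biological replicates of 300 oocytes per stage. The mice were 22 to 24 days old. GV oocytes were taken from their large antral follicles 44 to 46 h after priming with equine chorionic gonadotropin (eCG, 5 IU, which drives follicle growth), and 5 µM milrinone, a phosphodiesterase inhibitor, was in the medium to stop maturation. Cumulus cells were stripped from GV oocytes by pipetting. MII oocytes, with a visible polar body, came from the oviducts of mice that had received eCG and then human chorionic gonadotropin (hCG, 5 IU, which triggers ovulation), 14 h after hCG, and their cumulus cells were removed with hyaluronidase at 1 mg/ml. The sources used here give no strain, and all oocytes came from hormone-primed juvenile mice. Each array received the amplified product of 10 ng of total RNA over 2 rounds, with MultiStart primers in place of the standard oligo(dT), so RNA per oocyte was not measured, and in pooled oocytes fewer cells with a transcript and less transcript per cell cannot be told apart.

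Values are deposited log2 expression values. Pearson correlations over all probe sets were 0.988 to 0.991 between 2 arrays of one stage and 0.885 to 0.906 between a GV and an MII array. The array medians were 6.10 to 6.12 at GV and 5.47 to 5.49 at MII, and the median difference between stages was -0.15 over all probe sets. Oocyte markers averaged 11.04 to 11.13 across GV and 9.90 to 9.99 across MII arrays (11 of 13 listed genes measured, 0 below every array median). Of the 11, 6 were called lower (54.5%, against 37.8% of all genes) and 1 higher (9.09%, against 10.5%). Granulosa and cumulus markers averaged 4.47 to 4.54 and 4.09 to 4.25 (9 of 14 measured, of which 6 lay below the median of every array). Of the 9 measured, 3 were called lower in MII (33.3%, against 37.8% of all genes), Inhba, Nr5a2 and Fshr, and 6 were not called. Their part in the falls described next was not tested. The files do not fix the scale between arrays. Equal array medians add 0.62 to every difference between stages, equal hybridization controls take away 0.40 and equal poly-A controls take away 0.87, while quantile normalization moves the median difference by 0.34.

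Of the 20 probe sets, 6 were higher in MII, 7 were lower and 7 were not called (limma, Benjamini-Hochberg adjusted p under 0.05). The number called higher was 3 without MII replicate 2 or without MII replicate 3. Higher calls made up 30% of these probe sets against 10.9% of all probe sets, and lower calls 35% against 34.1%, so the share of lower calls was near that of the whole array. Over all probe sets, 45.0% were called in either direction. The median difference was 0.09 for the 20 probe sets. The ranges of the stages were apart for 14 of the 20, against 54.0% of all probe sets, with 6 lying higher in MII (14.6% of all) and 8 lower (39.4% of all). Probe sets of 1 gene share their transcript and are not independent. Dnmt1 and Dnmt3l fell, part of the Dnmt3a probe sets fell, and Zfp57, Dppa3, Tet3 and Trim28 rose on the scale as deposited. The falls of Dnmt1, Dnmt3l and 2 of the Dnmt3a probe sets and the rise of Zfp57 were called in all 5 scalings (as deposited and 4 others). The other rises were called under equal medians and quantile normalization, were called in neither control scaling, and were below 0 with equal poly-A controls.

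**Figure D1:**
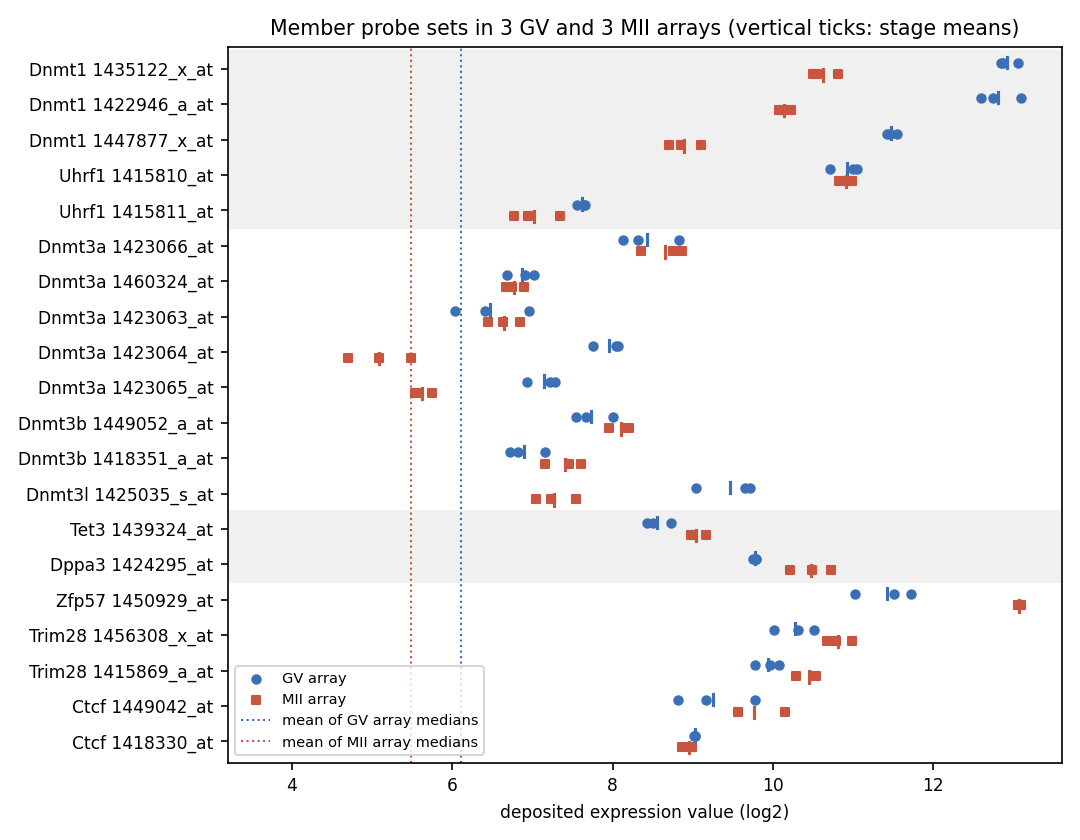
Deposited log2 values (horizontal axis) of the 20 probe sets on each of the 3 GV arrays (blue circles) and 3 MII arrays (red squares), with stage means as vertical ticks and the mean of the array medians of each stage as dotted lines. Grey and white bands separate maintenance, de novo, demethylation and imprint protection genes. All 3 Dnmt1 probe sets, Dnmt3l and 2 of the 5 Dnmt3a probe sets lie clearly lower in MII, and Zfp57 lies clearly higher.

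Among the maintenance genes Dnmt1 fell by all 3 of its probe sets, while of 2 Uhrf1 probe sets 1 was called lower and 1 was not called. Dnmt1 is the methyltransferase that copies methylation onto the new strand after replication. Oocytes make it from a first exon of their own, and which form each probe set reads was not tested. The brightest Dnmt1 probe set (1435122_x_at) read 13.05, 12.87 and 12.84 in the GV and 10.50, 10.82 and 10.55 in the MII replicates. Probe set 1422946_a_at read 13.10, 12.74 and 12.60, then 10.08, 10.22 and 10.12, and probe set 1447877_x_at read 11.55, 11.46 and 11.42, then 8.86, 9.10 and 8.70. Every GV value exceeded every MII value by more than 2 log2 units in each probe set. None of these Dnmt1 probe sets is of the plain _at type. They are of the _x_at and _a_at types, which by the maker's naming can match several transcripts. In the same order the differences were -2.30 ± 0.15, -2.67 ± 0.16 and -2.59 ± 0.15 (SE, 3 samples per stage), with limma adjusted p (Benjamini-Hochberg) of 6.7e-07, 4.5e-07 and 3.2e-07. The first 2 GV means, 12.92 and 12.81, lay within 0.5 of the highest value on the arrays (13.3). On the deposited scale these falls are therefore given as at least 4.92-fold and 6.37-fold. The third, away from that ceiling at GV, was 6.02-fold. Across the 5 scalings the brightest probe set ranged from -3.17 to -1.68, called lower in each.

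RefSeq lists 3 start sites for Dnmt1, and the 250 bases before the first and last of them are shown because they differ in CG dinucleotides, the substrate of the enzymes described here. CG is in capitals, the letters run 5′ to 3′ on the coding strand, and the build is GRCm38.p6.
Dnmt1 start 1, chr9:20959889-20960138, minus strand: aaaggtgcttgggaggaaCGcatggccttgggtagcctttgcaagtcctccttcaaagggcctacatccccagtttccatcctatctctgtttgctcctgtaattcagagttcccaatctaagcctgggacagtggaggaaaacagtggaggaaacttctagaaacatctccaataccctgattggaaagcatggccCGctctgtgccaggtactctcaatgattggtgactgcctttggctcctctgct
Dnmt1 start 3, chr9:20952624-20952873, minus strand: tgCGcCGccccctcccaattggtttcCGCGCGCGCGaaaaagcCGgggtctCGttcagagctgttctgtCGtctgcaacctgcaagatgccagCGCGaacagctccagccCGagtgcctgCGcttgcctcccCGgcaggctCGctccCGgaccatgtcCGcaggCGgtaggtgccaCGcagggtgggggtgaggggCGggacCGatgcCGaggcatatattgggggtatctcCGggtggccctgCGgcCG
On the minus strand the window of start 3 lies downstream of starts 1 and 2. The windows of starts 1, 2 and 3 hold 2, 7 and 26 CG. The first count is one that 81.2% of 32841 RefSeq windows of this length reach or exceed, and the last is one that 9.59% reach. CG reads the same on both strands. Which start the transcripts on the arrays came from was not measured.

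Uhrf1, which binds half-methylated DNA and brings Dnmt1 to it, gave a different picture. Its bright probe set (1415810_at) read 11.05, 10.99 and 10.71 at GV and 10.93, 10.99 and 10.82 at MII. The stages overlapped, with a difference of -0.0051 and a 95% confidence interval from -0.33 to 0.32. The dimmer probe set (1415811_at) read 7.65, 7.55 and 7.64, then 7.35, 6.77 and 6.94, and was called lower (-0.60 ± 0.17, SE; limma adjusted p = 0.015). That call was lost without MII replicate 2 (-0.47, limma adjusted p = 0.061), and with equal array medians the difference was 0.027. The difference of the bright probe set was 0.62 and called higher with equal medians, 0.29 after quantile normalization, and -0.88 with equal poly-A controls, where it was called lower. Within each array, where the scale cancels, Dnmt1 minus Uhrf1 went from 2.00 ± 0.13 at GV to -0.29 ± 0.13 at MII (SD, n = 3, bright probe sets), a change of -2.29 with no overlap. The Dnmt1 values at GV lay near the top of the array range, so the size of this change is a lower bound for these bright probe sets. The dimmer Uhrf1 probe set, which fell by 0.60, was not used, and the change against it would be smaller in size. For the bright pair the 2-sided exact permutation p was 0.1, the smallest that 3 against 3 samples allow. It was 0.14 after Benjamini-Hochberg adjustment over the 7 pairs of genes compared. A constant added to all values of an array does not alter such a difference.

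Among the de novo genes, Dnmt3l fell, Dnmt3a differed by probe set and Dnmt3b was slightly higher. Dnmt3l has no catalytic activity and stimulates Dnmt3a, and both are needed to set maternal imprints in growing oocytes. The only Dnmt3l probe set (1425035_s_at) read 9.72, 9.65 and 9.04 at GV and 7.04, 7.54 and 7.23 at MII. All GV values lay above all MII values. The difference was -2.20 ± 0.21 (SE; limma adjusted p = 1.2e-05), a 4.58-fold fall, and it ranged from -3.07 to -1.57 over the 5 scalings. This probe set is of the _s_at type, which by the maker's naming can match several transcripts. The 250 bases before the first of 3 RefSeq starts of Dnmt3l (GRCm38.p6, CG in capitals) are shown as those of the cofactor gene that fell.
Dnmt3l start 1, chr10:78042037-78042286, plus strand: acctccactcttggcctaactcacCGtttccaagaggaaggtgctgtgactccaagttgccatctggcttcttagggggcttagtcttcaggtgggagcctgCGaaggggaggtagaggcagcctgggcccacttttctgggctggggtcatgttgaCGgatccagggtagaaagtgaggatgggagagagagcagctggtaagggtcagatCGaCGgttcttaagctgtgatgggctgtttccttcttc
It holds 5 CG, which 55.6% of all windows reach or exceed, and the windows of its other starts hold 4 and 3. The median over all windows was 6.

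Dnmt3a, the de novo enzyme itself, was read by 5 probe sets that did not move together. Probe set 1423064_at read 8.06, 8.04 and 7.76 at GV and 5.08, 4.70 and 5.48 at MII, and 1423065_at read 7.28, 7.21 and 6.94, then 5.53, 5.59 and 5.74. Both were called lower with no overlap, at -2.87 ± 0.20 and -1.52 ± 0.15 (SE; limma adjusted p of 1.3e-06 and 1.4e-05). Each MII value of the first lay below the median of its own array. The fall of this first probe set is given as at least 7.29-fold on the deposited scale. Its log2 difference was -2.24 with equal array medians. The fall of the second was 2.87-fold. The brightest probe set, 1423066_at, read 8.82, 8.32 and 8.13, then 8.75, 8.86 and 8.36. It overlapped between stages, with a difference of 0.23 and a 95% confidence interval from -0.23 to 0.69. Probe sets 1423063_at and 1460324_at overlapped as well, at 0.18 (interval -0.33 to 0.68) and -0.10 (interval -0.43 to 0.22). Their values ran from 6.03 to 6.95 and 6.45 to 6.84, and from 6.69 to 7.02 and 6.67 to 6.89, at GV and MII in turn.

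The gap within each array between 1423066_at and 1423064_at, a pair chosen after the values were seen, grew from 0.47 ± 0.25 at GV to 3.57 ± 0.65 at MII (SD, n = 3) on the values as measured. A constant added to an array leaves the change of 3.09 as it is. The MII values of 1423064_at lay below the medians of their own arrays, so the change is given as at least 3.09. All 5 probe sets carry the same accession in the annotation, and which transcript ends each one reads was not tested. Averaged over its probe sets, Dnmt3a was at -0.82 ± 0.14 (SE; limma adjusted p = 4e-04), a mean of the 2 behaviours. The 3 uncalled probe sets were called higher at 0.52 to 0.85 with equal array medians and were at -0.98 to -0.64, all called lower, after scaling to the poly-A controls, while both falls were called in all 5 scalings. Within arrays, Dnmt3a (1423066_at) minus Dnmt3l changed by 2.42 with no overlap (2-sided exact permutation p = 0.1, adjusted 0.14), from -1.04 ± 0.25 to 1.38 ± 0.30 (SD, n = 3). Relative to Dnmt3b the same Dnmt3a probe set changed by -0.14, with overlap (exact permutation p = 0.7, adjusted 0.7). The falling Dnmt3a probe sets were used in neither pair. Of these, 1423064_at (-2.87) fell further than Dnmt3l (-2.20) and 1423065_at (-1.52) fell less, so the direction against Dnmt3l depends on the probe set.

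Dnmt3b, the other de novo enzyme, is not needed for maternal imprints. Its probe set 1418351_a_at read 7.15, 6.82 and 6.72 at GV and 7.61, 7.45 and 7.16 at MII, which left no overlap, though the highest GV and the lowest MII value nearly met. It was called higher at 0.51 ± 0.17 (SE; limma adjusted p = 0.035), a call lost when any of 4 arrays was left out (GV replicates 2 and 3, MII replicates 1 and 2, at 0.41 to 0.49). The brighter 1449052_a_at read 7.67, 8.00 and 7.54, then 7.95, 8.21 and 8.15, and at 0.37 ± 0.16 it was not called (limma adjusted p = 0.089; 0.50 and called without GV replicate 2). With equal poly-A controls the 2 were at -0.36 and -0.50, neither called.

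**Figure D2:**
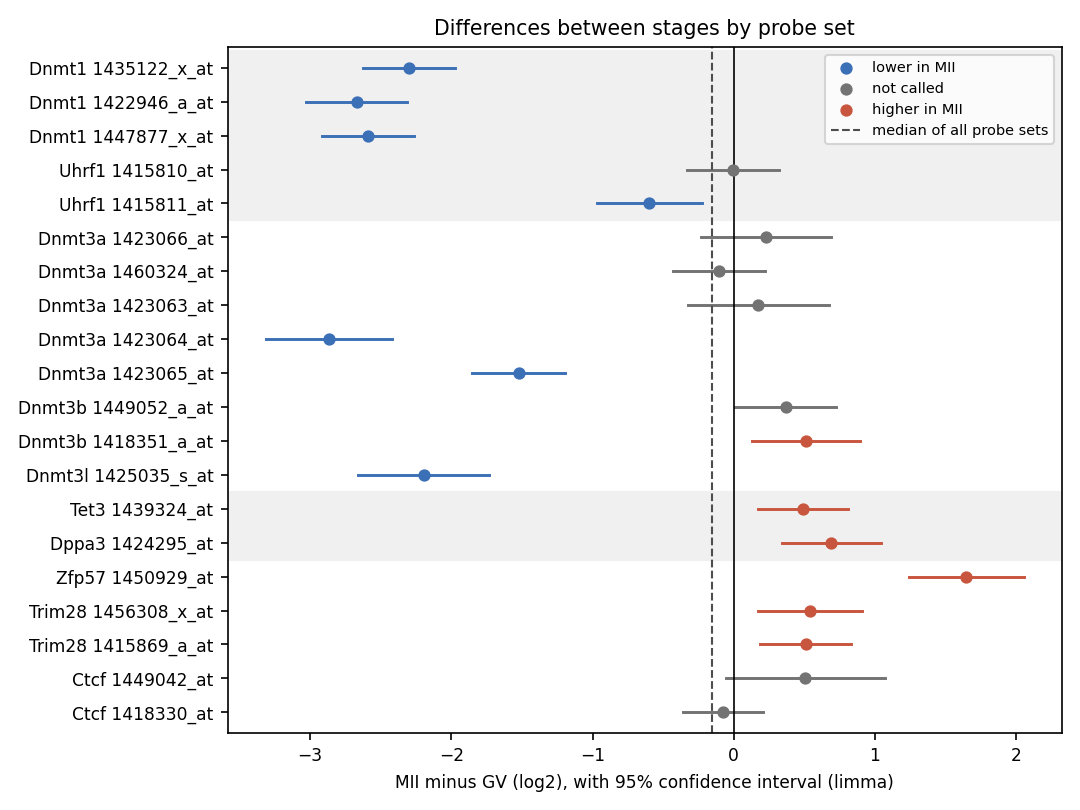
MII minus GV difference of each probe set (log2, horizontal axis) with its 95% confidence interval from limma, coloured by call at a Benjamini-Hochberg adjusted p under 0.05, with the median of all probe sets (-0.15) as a dashed line. The 7 lower calls reach from -2.87 to -0.60 and the 6 higher calls from 0.49 to 1.65.

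Both genes of demethylation and its control were higher in MII on the deposited scale. Tet3 oxidises methylcytosine in the zygote, mainly on the paternal genome. Its probe set (1439324_at) read 8.43, 8.51 and 8.73 at GV and 8.99, 8.98 and 9.17 at MII. The stages did not overlap, and the rise was 0.49 ± 0.14 (SE; limma adjusted p = 0.018), or 1.41-fold. The call was lost without GV replicate 1 (0.43), GV replicate 2 (0.47) or MII replicate 3 (0.43), and with equal poly-A controls the difference was -0.38.

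Dppa3, also known as Stella or PGC7, shields the maternal genome from Tet3 in the zygote and restrains Uhrf1 in the oocyte. It read 9.79, 9.79 and 9.75 at GV and 10.21, 10.48 and 10.73 at MII. The GV values lay close together (SD 0.022) and all MII values lay above them, spread more widely (SD 0.26). The rise of 0.69 ± 0.16 (SE; limma adjusted p = 0.0049; 1.62-fold) was still called when any 1 array was left out, was 0.29 and not called with equal hybridization controls, and was -0.18 and not called with equal poly-A controls. Relative to Uhrf1 (1415810_at) within each array, Dppa3 went from -1.14 ± 0.16 to -0.44 ± 0.32 (SD, n = 3), a change of 0.70 with no overlap (2-sided exact permutation p = 0.1, adjusted 0.14). The other Uhrf1 probe set (-0.60) was not used here, and the change against it would be larger. Relative to Tet3, Dppa3 changed by 0.20, with overlap (exact permutation p = 0.3, adjusted 0.35).

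Imprint protection genes gave the largest rise of the members. Zfp57 is a zinc finger protein that binds a methylated motif at imprinting control regions and recruits Trim28. It read 11.51, 11.03 and 11.73 at GV and 13.10, 13.05 and 13.05 at MII, so all 3 MII arrays lay above all 3 GV arrays and close together. The difference was 1.65 ± 0.18 (SE; limma adjusted p = 3.6e-05), which ranked above 99.9% of all probe sets. The MII mean of 13.07 lay within 0.5 of the arrays' highest value, and the rise is given as at least 3.13-fold on the deposited scale. It was called under all 5 scalings, from 0.77 with equal poly-A controls to 2.27 with equal medians, and with any 1 array left out, from 1.45 without GV replicate 2 to 1.80 without GV replicate 3. The 250 bases before the first of 3 RefSeq starts of Zfp57 are shown as those of the member with the largest rise (GRCm38.p6, CG in capitals).
Zfp57 start 1, chr17:37000913-37001162, plus strand: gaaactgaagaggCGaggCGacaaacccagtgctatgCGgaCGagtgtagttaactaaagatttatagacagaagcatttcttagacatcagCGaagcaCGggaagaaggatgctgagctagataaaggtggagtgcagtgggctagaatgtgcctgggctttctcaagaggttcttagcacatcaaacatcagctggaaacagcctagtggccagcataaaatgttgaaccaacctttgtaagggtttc
They hold 6 CG, the median of all windows, and the windows of the other Zfp57 starts hold 7 and 3. For comparison, the single windows of Dnmt3b, Tet3, Trim28 and Ctcf hold 21, 17, 17 and 40, those of the 3 Dnmt3a starts hold 38, 40 and 15, and those of the 2 Uhrf1 starts hold 10 and 30. Windows were matched for 9 of the 10 genes, all but Dppa3.

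Trim28, also called KAP1, is the scaffold that Zfp57 and related proteins use to assemble silent chromatin. Probe set 1456308_x_at read 10.51, 10.31 and 10.01 at GV and 10.68, 10.99 and 10.79 at MII, and 1415869_a_at read 10.07, 9.96 and 9.78, then 10.28, 10.52 and 10.54. Neither overlapped between stages, and the rises were 0.54 ± 0.17 and 0.51 ± 0.15 (SE; limma adjusted p of 0.023 and 0.016). Both calls were lost without GV replicate 3 (0.41 and 0.43), MII replicate 2 (0.46 and 0.47) or MII replicate 3 (0.56 and 0.46), and the first also without GV replicate 2 (0.56). With equal poly-A controls the differences were -0.33 and -0.36. Within arrays, Zfp57 minus Trim28 went from 1.15 ± 0.52 to 2.25 ± 0.18 (SD, n = 3), a change of at least 1.11, Zfp57 being near the top of the array range at MII, with no overlap (2-sided exact permutation p = 0.1, adjusted 0.14).

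Ctcf, the insulator protein that keeps the maternal copy of an imprinting control region free of methylation, was not called by either probe set. Probe set 1449042_at read 9.17, 8.81 and 9.77 at GV and 10.15, 9.57 and 9.56 at MII, overlapping at 0.51 with a 95% confidence interval from -0.05 to 1.07, and it was called higher without GV replicate 3 (0.77, limma adjusted p = 0.022). Probe set 1418330_at read 9.02 on all 3 GV arrays and 8.98, 8.87 and 8.99 on the MII arrays. These values do not overlap, but the difference of -0.07 (interval -0.36 to 0.21) was far from called. With equal array medians both were called higher, at 1.13 and 0.55, and the second was at -0.95 and called lower when poly-A controls were made equal.

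**Figure D3:**
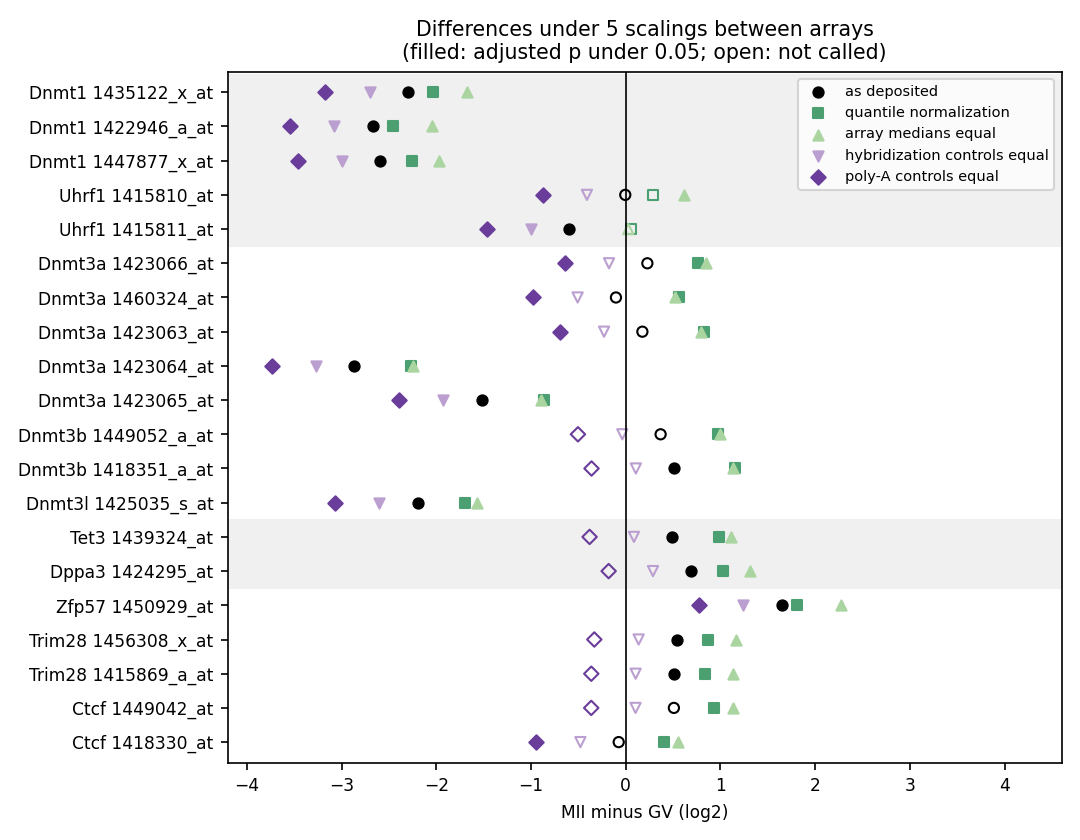
MII minus GV difference of each probe set (log2, horizontal axis) as deposited and under 4 other scalings between arrays, with filled symbols for an adjusted p under 0.05 and open symbols for uncalled differences. Dnmt1, Dnmt3l, the 2 falling Dnmt3a probe sets and Zfp57 keep their side of 0 and their call in all 5, and the others cross 0 or lose their call in at least 1.

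The contrast between Zfp57 and Dnmt1 was the widest of the 7 pairs. Among the members' brightest probe sets Zfp57 had the largest rise and Dnmt1 the largest fall, so this ranking follows from those values. Zfp57 minus Dnmt1 was -1.54, -1.84 and -1.12 in the GV arrays and 2.60, 2.24 and 2.50 in the MII arrays. It changed by 3.95, from -1.50 ± 0.36 to 2.45 ± 0.19 (SD, n = 3), with no overlap (2-sided exact permutation p = 0.1, adjusted 0.14). Since both genes reach the top of the array range in 1 stage, this value is a lower bound. Only the change of such a difference can be read, since levels of 2 probe sets are not comparable.

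**Figure D4:**
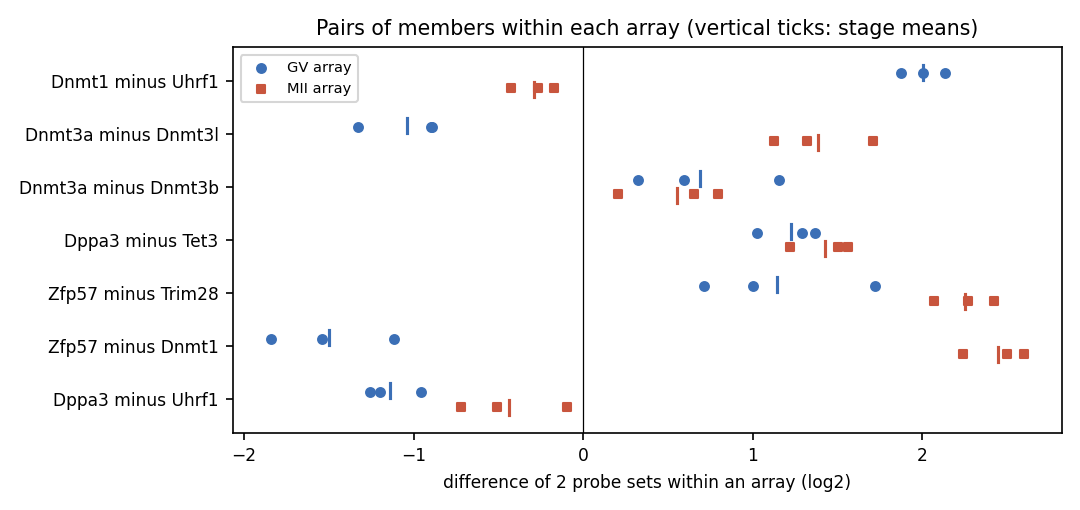
Difference of 2 genes' brightest probe sets within each array (log2, horizontal axis) for 7 pairs, on 3 GV arrays (blue circles) and 3 MII arrays (red squares), with stage means as vertical ticks. The stages do not overlap for 5 pairs and overlap for Dnmt3a minus Dnmt3b and Dppa3 minus Tet3.

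The genes nearest to 3 of the members in their pattern over the 6 arrays, each centred on its own mean, were found by Euclidean distance. For Dnmt1 they were Mrpl28 and Nsun4 (distance 0.13 and 0.14 log2 units), at -2.23 (with an MII mean of 4.96, below the array medians) and -2.29. Dppa3 had Arhgef39 and Cabin1 (0.10 and 0.13) as neighbours, at 0.72 each, and Zfp57 had Nr2e1 and Pold3 (0.28 and 0.32), at 1.54 and 1.42. Arhgef39 and Cabin1 were at -0.16 and -0.15 with equal poly-A controls.

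Other genes of methylation and imprinting, in 6 lists read with 1 probe set per gene, were called about as often as all genes on the array. Counted with the imprinted genes described at the end, 94 of 131 listed genes were measured, of which 13 rose and 35 fell by limma (adjusted p under 0.05), with a median difference of -0.13. These are 13.8% and 37.2% of the measured genes, near the 10.5% called higher and 37.8% called lower over all 11429 genes, whose median was -0.20. The count of rises was 8 without GV replicate 2, and it was 0 with either set of controls made equal (limma), where 75 fell with equal poly-A controls, against 52 rises and 20 falls with equal medians.

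Of 10 measured methylation readers, 1 rose and 4 fell. Mbd1, a methyl-CpG binding protein, was at -2.73 ± 0.29 (SE), although its other probe set was at -0.19 and not called. The MII values of the falling probe set lay below every MII array median. On the deposited scale its fall is therefore at least this large. Kdm2b, which binds unmethylated CpG, was at -1.28 ± 0.14. Cxxc1, a CpG-binding subunit of a histone methyltransferase complex, rose by 0.60 ± 0.17 (another probe set at 0.03, not called; -0.27 with equal poly-A controls; not called without GV replicate 2 or MII replicate 3). In demethylation and base excision, 1 of 9 rose and 4 fell. Apex1, the endonuclease that cuts abasic sites, was at -2.26 ± 0.20 with both other probe sets called lower, and the repair scaffold gene Xrcc1 was at -1.69 ± 0.18. Parp1, which senses strand breaks, rose by 0.45 in its brightest probe set, but another was called lower at -1.91, and the rise was lost when any 1 of 5 arrays was left out (all but GV replicate 3) and with the replicate block (limma adjusted p = 0.053). With equal poly-A controls it was at -0.42.

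Genes of one-carbon metabolism, which makes the methyl donor, divided as 3 rises and 3 falls of 10. Ahcy, which clears the inhibitory product of methylation, fell by 2.46 ± 0.15 (SE). Mtrr, which reactivates methionine synthase, fell by 1.45 ± 0.26, with each value below the median of its own array. Without GV replicate 1 the Mtrr difference was -1.10. Shmt2 and Mat2b, a mitochondrial serine hydroxymethyltransferase and a regulatory subunit of methionine adenosyltransferase, rose by 0.85 ± 0.20 and 0.51 ± 0.14 (-0.022 and -0.36 with equal poly-A controls, and Mat2b not called without MII replicate 3). Other Shmt2 probe sets were at 0.69 and 0.58, called higher, and at 0.08, not called.

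In the KAP1 heterochromatin list 2 of 12 rose and 5 fell. Chd4, a chromatin remodeller, rose by 0.95 ± 0.17 (SE; 0.073 and not called with equal poly-A controls). Other Chd4 probe sets were at 0.46, called higher, and at 0.08, not called. Setdb1, the histone H3 lysine methyltransferase that Trim28 recruits, rose by 0.61 ± 0.17 in its brightest probe set while another was called lower at -1.60, and the rise was not called without GV replicate 2 or MII replicate 1 and was at -0.26 with equal poly-A controls. The heterochromatin protein gene Cbx5 was at -2.85 ± 0.26 and the ATPase gene Morc2a at -1.74 ± 0.16. On the deposited scale the Cbx5 fall is at least this large, with MII values below every MII array median. Other Cbx5 probe sets were at -1.10, called lower, and at -0.37 and -0.20, not called.

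Of 15 maintenance co-factor genes 1 rose and 5 fell. Lig1, the ligase of replication, was at -2.45 ± 0.17 (SE) and Dmap1, named for binding Dnmt1, at -2.17 ± 0.24. Csnk1e, a casein kinase, rose by 0.72 ± 0.13 in 1 probe set and fell by 1.09 in another (the rise was at -0.15 with equal poly-A controls). In imprint establishment and protection 3 of 18 rose and 5 fell. Khdc3, of the subcortical maternal complex, was at -3.48 ± 0.18 and the histone methyltransferase gene Nsd1 at -1.69 ± 0.13 (others at -0.24 and -0.44, not called). The Khdc3 MII values lay below every MII array median, so on the deposited scale its fall is at least this large. Rlim, an X-linked ubiquitin ligase, rose by 0.64 ± 0.16 with 1 of its 4 other probe sets called higher, and Ehmt1, a histone H3 lysine methyltransferase, rose by 0.52 ± 0.16 (-0.23 and -0.36 with equal poly-A controls). Ehmt1 lost its call when GV replicate 2, GV replicate 3, MII replicate 1 or MII replicate 2 was left out.

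**Figure D5:**
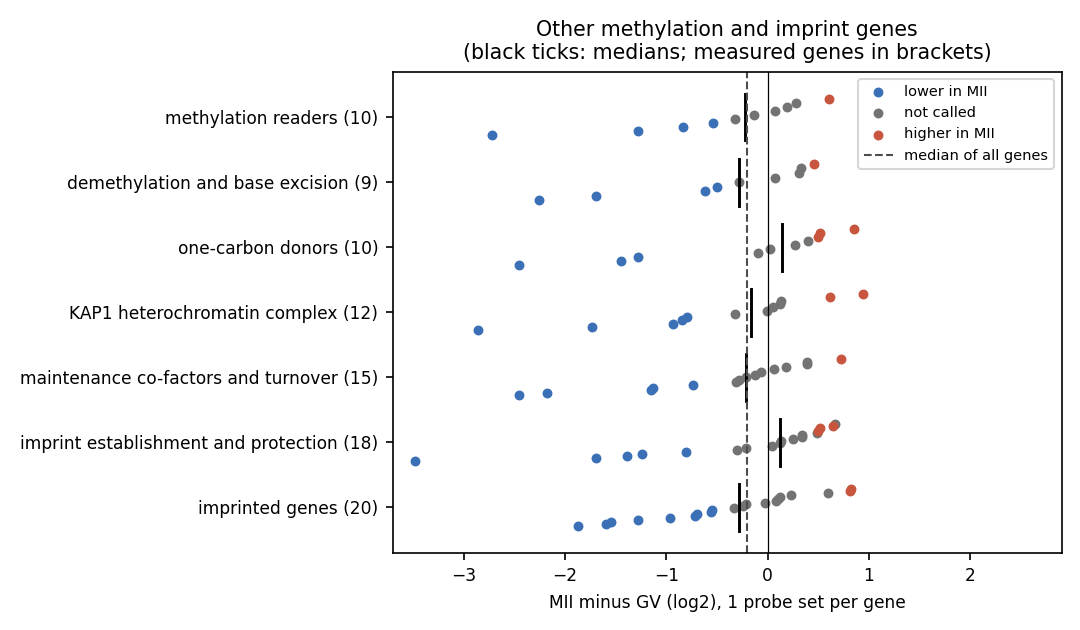
MII minus GV difference (log2, horizontal axis) of the measured genes of 7 lists, 1 probe set per gene, coloured by call, with list medians as black ticks and the median of all genes (-0.20) as a dashed line. The list medians lie between -0.29 and 0.15.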

How the data were processed

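Expression was measured on 1 short-oligonucleotide array per sample, 3 GV and 3 MII. The deposited values are log2 expression values made by the authors, and RMA and the R package affy are named per the submitters' processing notes, without version or settings. The sources used here do not give background correction, filters or a genome build. Over the 6 arrays together, 7077 distinct values occurred. The table had 21702 probe sets, of which 56 control features were left out. Of the 21646 tested, 19078 had 1 gene symbol, 550 several and 2018 none. MII was compared with GV by lmFit and eBayes of limma 3.58.1 in R 4.3.3 (stage as the single term, 2-sided, no intensity filter). P-values were adjusted over the whole table by Benjamini-Hochberg, with 0.05 as threshold. The total degrees of freedom were 9.78. A gene's brightest probe set had the highest mean over all arrays. Scalings used array medians, quantiles, 18 hybridization or 21 poly-A control features. On simulated data of 21646 probe sets, the fit found 54% of the 2-fold changes and 97% of the 4-fold ones put in. Far fewer probe sets were changed there than were called in the data, so these shares do not carry over to the data. Replicate numbers in the titles were not used to pair the arrays in the main fit. Deviations of same-numbered arrays from their stage means correlated at 0.091, 0.029 and 0.027. Members, lists and tests were chosen with earlier results of these data known. In each list, up to 2 called genes with the largest rise and 2 with the largest fall were named. Lists other than the members were compiled from general knowledge. Theca, stroma and erythrocyte markers had no usable probe set, and of leucocyte and endothelial markers 1 was measured and not called. The number of arrays limits the precision. Sequences and CG counts came from RefSeq (GRCm38.p6), used for no coordinates of the arrays.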

Additional observations from a re-analysis of the deposited data

How the results depend on the processing

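The scale between arrays decided most counts. Higher calls among the 20 probe sets came to 13 when array medians were set equal, 12 under quantile normalization and 1 when either kind of control was, and lower calls numbered 12 with equal poly-A controls. Over all probe sets, higher and lower calls were 12016 and 4306 with equal medians, 7538 and 4794 after quantile normalization, 104 higher with equal hybridization controls, and 65 and 18380 with equal poly-A controls. Without moderation 1279 were higher. With dim probe sets left out, 4438 of the 10823 fitted were lower, against 7376 of 21646 in the main fit. For the other methylation genes, rises and falls were 52 and 20, 40 and 23 in the first 2 scalings, with 0 rises in limma under both control scalings and 75 falls with equal poly-A controls. Counting only probe sets not of the types _s_at, _x_at or _a_at left 3 higher and 3 lower of 12 member probe sets. These 12 include no probe set of Dnmt1, Dnmt3l, Dnmt3b or Trim28. With 1 probe set per gene, 4 of 10 were higher and 2 lower. The lower ones were Dnmt1 and Dnmt3l, and the brightest Dnmt3a and Uhrf1 probe sets were not called. Leaving out 1 array gave 3 to 5 higher and 6 to 7 lower member probe sets (3 higher without MII replicate 2 or 3), 1547 (without GV replicate 2) to 2127 higher and 6668 to 6958 lower probe sets in all, and 8 to 15 rises and 32 to 34 falls of other genes. Of 13 called member probe sets, 8 kept direction and call whichever array was left out.

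With equal medians the direction turned for Uhrf1 (0.62 and 0.027), Dnmt3a 1460324_at (0.52) and Ctcf 1418330_at (0.55), and after quantile normalization for the same probe sets (0.29, 0.056, 0.56 and 0.41). Equal hybridization controls turned Dnmt3a 1423066_at (-0.18) and 1423063_at (-0.23) and Dnmt3b 1449052_a_at (-0.037). Equal poly-A controls turned the first 2 (-0.64 and -0.70), Dnmt3b (-0.50 and -0.36), Tet3 (-0.38), Dppa3 (-0.18), Trim28 (-0.33 and -0.36) and Ctcf 1449042_at (-0.36), and among other genes Setdb1 (-0.26), Csnk1e (-0.15), Rlim (-0.23), Parp1 (-0.42), Asb4 (-0.055), Mat2b (-0.36), Kcnq1 (-0.064), Cxxc1 (-0.27), Ehmt1 (-0.36), Shmt2 (-0.022), Arhgef39 (-0.16) and Cabin1 (-0.15). Leaving out 1 array moved Uhrf1 1415810_at between -0.11 and 0.061, Dnmt3a 1423063_at between -0.042 and 0.42, and Dnmt3a minus Dnmt3b between -0.32 and 0.092. The cause of these turns was not tested beyond the scaling itself. With the replicate number as a block, 6 member probe sets were higher and 7 lower, and 2400 and 7300 of all probe sets, and the numbers only name the arrays. In the deviations from stage means, no array correlated best with the one of its own number. Values near 13.3 are compressed, and those below the array median have no measured background.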

Other observations

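Imprinted genes, which are expressed from 1 parental copy in many tissues, were measured for 20 of 38 listed genes. Of these, 2 rose and 9 fell by limma at an adjusted p under 0.05, or 10% and 45% of those measured, beside 10.5% called higher and 37.8% lower over all genes. The median difference was -0.29 against -0.20 over all genes, and nothing particular to imprinted genes is read from these shares. Gnas, which encodes a stimulatory G protein subunit, fell by 1.88 ± 0.22 (SE), from 10.69 ± 0.40 at GV to 8.81 ± 0.28 at MII (SD, n = 3), while its other probe set was at -0.02 and not called. Igf2r, the receptor that clears the growth factor Igf2, fell by at least 1.60 (SE 0.16) on the deposited scale. Its MII level was 4.81, below every MII array median. Its other probe set was at -0.65 and not called. Asb4, a substrate adaptor of a ubiquitin ligase, rose by 0.82 ± 0.16 with its other probe set called higher at 0.99, and the potassium channel gene Kcnq1 rose by 0.81 ± 0.16. Both rises fell just below 0 with equal poly-A controls, at -0.055 and -0.064, and neither was called with equal hybridization controls, at 0.41 and 0.40.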
